A study of Homo sapiens with 4 samples.

Results

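The heat shock protein genes and HSF1 were followed in SKOV3 cells, an established human ovarian cancer cell line, cultured on a tissue culture plate (TCP) or as tumor spheroids on a plate coated with polymer X, a polymer thin film. The 10 genes were HSF1, HSPA1A, HSPA1B, HSPA8, HSPH1, DNAJB1, HSP90AA1, HSP90AB1, HSPB1 and HSPE1, and all 10 were found among the 19475 gene symbols of the deposited table. They were chosen by name, with earlier results of these data known. For each symbol the transcript kept was that of highest mean FPKM across the 4 libraries. The symbols covered 22 of the 50078 listed transcripts. The labels gave 2 libraries of cells on TCP at day 0 and 2 libraries of spheroids on polymer X at day 8. All came from the same parental line, with no transgene or drug named for them, and they carried replicate numbers 1 and 2 in each group. The labels gave 1 growth protocol, with serum replacement, for all libraries, whereas the study's methods maintained SKOV3 cells in fetal bovine serum and spheroids in serum replacement. Those methods also dissociated spheroids every few days. Substrate, day and, possibly, medium thus changed together and cannot be told apart. Nothing in the labels said that the 2 libraries of a group came from separate cultures, so p-values measured only the spread between these libraries. Fewer cells that make an mRNA and less of it in each cell also cannot be told apart in bulk RNA, and a single cell line was used.

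Heat shock proteins are molecular chaperones, which bind unfolded or partly folded proteins and help them to reach or keep their shape. HSF1 is the transcription factor that drives their genes under heat and other protein-damaging stress by binding heat shock elements, which are inverted repeats of a short GAA unit. HSP70 proteins take up client proteins with the help of J-domain proteins, nucleotide exchange factors reset them, and HSP90 acts later on clients such as kinases and steroid receptors. Cancer cells commonly carry high levels of these chaperones. HSPE1 differs from the other 9, since its protein works in the mitochondrial matrix as the lid of the HSPD1 chaperonin.

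The letters upstream of the genes are shown as background, since HSF1 reads a known motif. Neither its binding nor its activity was measured here, and its part in the changes was not tested. RefSeq windows of 250 bases upstream of an annotated start, on GRCh38.p14, were found for 9 of the 10 genes (14 windows), and HSF1 was not in that table. The expression file was on another build, hg19, and its coordinates are given with each gene. An element of at least a pair of units was searched as GAANNTTC or TTCNNGAA, each of which reads the same on both strands. An element with a further unit was searched on both strands as GAANNTTC followed by any 2 bases and GAA, or TTCNNGAA followed by any 2 bases and TTC, and each match to it also holds the shorter form. The shorter form was present in 7 of the 14 windows, 1 for each of 7 genes, and in 11.6% of all 35116 windows of the table. The longer form was present in 3 of the 14, those of HSPA8, HSP90AA1 and HSP90AB1, and in 0.441% of all windows. The 5 windows below include these 3 genes and the near-identical pair HSPA1A and HSPA1B, written from 5′ to 3′ on the strand of the gene with matches in capitals.
HSPA1A, chr6:31815293-31815542, plus strand: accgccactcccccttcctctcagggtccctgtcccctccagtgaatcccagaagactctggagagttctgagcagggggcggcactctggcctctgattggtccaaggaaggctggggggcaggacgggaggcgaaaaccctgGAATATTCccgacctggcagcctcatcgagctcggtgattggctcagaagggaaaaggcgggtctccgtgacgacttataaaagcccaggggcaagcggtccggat
HSPA1B, chr6:31827488-31827737, plus strand: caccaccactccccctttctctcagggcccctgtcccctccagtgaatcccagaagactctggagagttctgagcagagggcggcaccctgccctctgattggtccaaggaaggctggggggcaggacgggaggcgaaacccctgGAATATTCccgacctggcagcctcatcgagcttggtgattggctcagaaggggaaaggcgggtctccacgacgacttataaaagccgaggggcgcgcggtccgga
HSPA8, chr11:123062137-123062386, minus strand: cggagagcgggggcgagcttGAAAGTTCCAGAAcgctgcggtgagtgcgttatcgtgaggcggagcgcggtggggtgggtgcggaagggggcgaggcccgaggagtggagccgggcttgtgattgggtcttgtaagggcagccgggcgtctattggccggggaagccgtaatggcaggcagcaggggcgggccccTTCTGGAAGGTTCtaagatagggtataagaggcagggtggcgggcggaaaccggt
HSP90AA1, chr14:102087045-102087294, minus strand: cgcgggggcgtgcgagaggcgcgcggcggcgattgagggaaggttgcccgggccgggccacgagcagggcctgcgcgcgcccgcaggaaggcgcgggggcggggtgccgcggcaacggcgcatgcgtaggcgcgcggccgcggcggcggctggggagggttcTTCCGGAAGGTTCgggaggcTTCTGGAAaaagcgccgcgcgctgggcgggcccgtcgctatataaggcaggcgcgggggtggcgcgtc
HSP90AB1, chr6:44247693-44247942, plus strand: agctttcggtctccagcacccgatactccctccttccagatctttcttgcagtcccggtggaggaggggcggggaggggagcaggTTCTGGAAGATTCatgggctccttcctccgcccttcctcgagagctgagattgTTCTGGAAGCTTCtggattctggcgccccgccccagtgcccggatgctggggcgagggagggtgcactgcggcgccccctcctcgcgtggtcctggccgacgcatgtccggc

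HSPA8 held the longer form at 2 places, 43 to 55 and 218 to 230 bases upstream of its start. HSP90AA1 held it 76 to 88 bases upstream, with another shorter match 61 to 68 bases upstream. In HSP90AB1, the matches lay at 100 to 112 and 153 to 165 bases before the most downstream of 3 annotated starts, and the windows of the other starts held none. DNAJB1 and HSPB1 held the shorter form, and the windows of HSPH1 and HSPE1 held neither. On hg19 the listed HSPH1 transcripts begin at 31736158 or 31736525. The HSPH1 window may not be that of the transcript used, which begins at 31736158. HSPD1, which starts next to HSPE1 on the opposite strand, held both forms 228 to 245 bases before 1 of its 2 annotated starts. On GRCh38.p14 this is 294 to 311 bases before the annotated start of HSPE1 and outside its window. On hg19, however, the HSPE1 transcript used starts inside a listed HSPD1 transcript, with 278 bases of overlap. Its start is thus placed differently there, and the window may not lie just upstream of that HSPE1 transcript. The upstream windows of HSPA1A and HSPA1B were identical at 235 of 249 aligned bases (94.4%). Each held the same shorter match, 99 to 106 bases before the start of HSPA1A and 98 to 105 bases before that of HSPA1B. A match of letters is a description and not a measured binding site, and a window without one says only that these letters were not there.

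Expression was given as FPKM, a tag number corrected for both library size and transcript length. Judged by the steps between its low values, depth was lowest in TCP replicate 1 (38402000 tags) and highest in TCP replicate 2 (44917000 tags), with both polymer X libraries in between. The correlation between replicates across tested genes was 0.998 on TCP and 0.997 on polymer X. Of the epithelial markers, KRT8, KRT18, ERBB2 and PAX8 lay at an FPKM of 48.8 or above in every library, and EPCAM, KRT19, MUC16 and WT1 at 1.39 or below. Markers of leukocytes, endothelium and red cells, 9 genes, all lay under an FPKM of 1, with sums of 0.115 to 0.169 on TCP and 1.44 to 1.45 on polymer X, and CD3E, HBB and HBA1 were listed at 0 in every library. The summed FPKM of the 8 epithelial markers was 632 to 647 on TCP and 1203 to 1253 on polymer X. ERBB2 (198 and 206 against 913 and 860) and PAX8 were higher on polymer X, while KRT8 (262 and 269 against 146 and 143) and KRT18 were lower. The part of either marker group in the results was not tested.

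Every one of the 10 genes was lower on polymer X than on TCP, with both polymer X libraries under both TCP libraries, as was the case for 48.4% of the 11964 genes tested, with 41.9% the other way round. The tested genes reached an FPKM of 1 in 2 or more libraries, and changes were fitted on log2(FPKM + 1) with limma, on which scale the change of a gene with low FPKM is understated. All 10 had an adjusted p under 0.05 in the lower direction, against 43.6% of the tested genes lower, 37.4% higher and 81% in either direction. With a log2 fold change of 1 or more in size required as well, which is the call used here, 4 of the 10 were lower and 0 were higher, against 9.45% of the tested genes lower and 10.7% higher (20.2% in either direction). These 4 were HSP90AA1, HSPH1, HSPA8 and HSPE1. Over all 10 genes the median change was -0.86 on the log2 scale, and that of all tested genes was -0.06. Summed over the 10 genes, FPKM was 3286 and 3261 in the TCP libraries and 1418 and 1248.5 in the polymer X libraries, or 1.05% and 1.07% against 0.510% and 0.460% of the sum over all symbols.

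**Figure D1:**
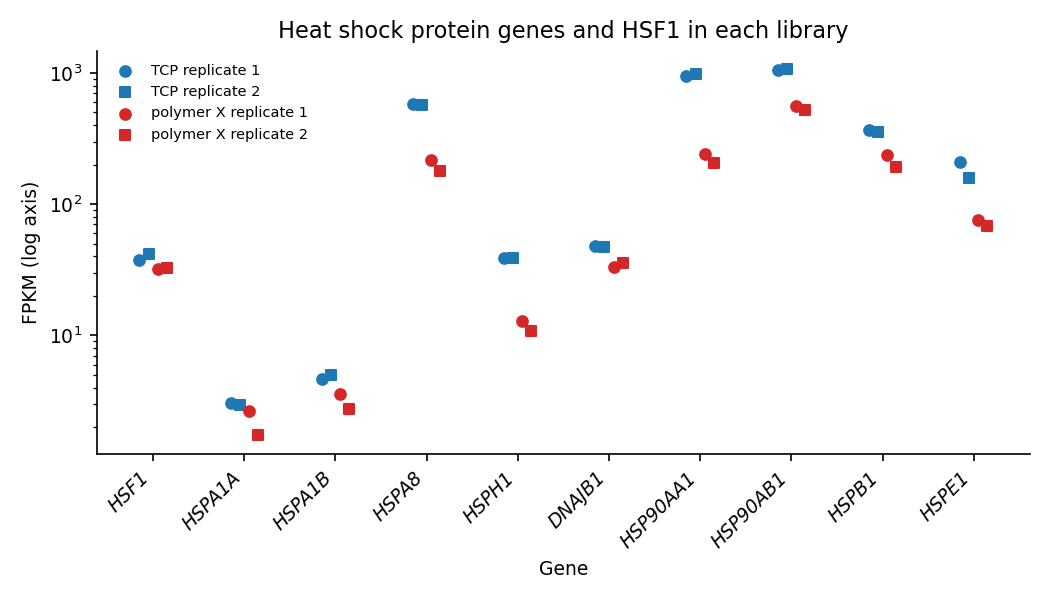
FPKM of each gene on a log axis in each library, with TCP in blue, polymer X in red, circles for replicate 1 and squares for replicate 2. For each gene both red points lie under both blue points, and HSPA1A and HSPA1B lie at 5.01 or below while HSP90AB1 lies at 518 or above.

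HSF1 (NM_005526, hg19 chromosome 8, 145515251 to 145538389, plus strand) changed least of the 10. Its FPKM was 37.8 and 41.4 on TCP and 31.8 and 32.9 on polymer X. The groups did not overlap, and the polymer X mean was 81.7% of the TCP mean. The log2 fold change was -0.28 (standard error, SE, 0.06, adjusted p = 0.0022 from limma), and 37.7% of the tested genes had a larger fall. This direction was not kept under quantile normalization, which gave 0.004 (adjusted p = 0.96 from limma). Scaling to a common median gave -0.24 (adjusted p = 0.0058 from limma). Over all alternatives its adjusted p ran from 6.1e-05 to 0.96 in limma. The last 144 bases of HSF1 overlap the end of DGAT1 on the opposite strand, whose FPKM was 7.28 to 8.78, and tags were counted on both strands.

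HSP90AA1 and HSP90AB1 encode the stress-inducible and the constitutive form of cytosolic HSP90. On TCP they were at rank 20 and 17 of the symbols by mean FPKM, and on polymer X at rank 126 and 36. HSP90AA1 (NM_005348, chromosome 14, 102547075 to 102553512, minus strand) had an FPKM of 954 and 976 on TCP and 242 and 207 on polymer X. This was the largest change of the 10 genes, a mean of 965 ± 15.9 (SD, n = 2) against 224 ± 24.7 (SD, n = 2), or 4.305-fold lower. Its log2 fold change was -2.11 (SE 0.08, adjusted p = 2.4e-08 from limma), which was rank 120 among the falls of the tested genes. Its other listed transcript gave -2.09.

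HSP90AB1 (NM_007355, chromosome 6, 44214695 to 44221625, plus strand) had an FPKM of 1045 and 1069 on TCP and 563 and 518 on polymer X. The polymer X mean was 51.1% of the TCP mean, and no library of one group reached the other. The log2 fold change of -0.97 (SE 0.07, adjusted p = 1.7e-06 from limma) lay just short of the fold minimum, and without polymer X replicate 1 it was -1.03. The 5 listed transcripts gave between -0.97 and -0.94. The ratio of HSP90AA1 to HSP90AB1 was 0.913 in both TCP libraries and 0.429 and 0.399 in the polymer X libraries. With all listed transcripts of each gene summed, 2 for HSP90AA1 and 5 for HSP90AB1, it was 0.340 in both TCP libraries and 0.160 and 0.148 on polymer X. Either way the ratio was lower in both polymer X libraries, while its level depends on how transcripts are taken. The exact permutation p (two-sided) was 0.33 for this and each of the other 4 ratios given here, the smallest that 2 libraries in each of 2 groups can give.

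HSPA8 encodes HSC70, the constitutive HSP70 of the cytosol, and had a higher FPKM than the other cytosolic HSP70 genes listed here. HSPA8 (NM_006597, chromosome 11, 122928200 to 122933043, minus strand) had an FPKM of 581 and 565 on TCP and 217 and 179 on polymer X. The means were 573 ± 11.9 (SD, n = 2) and 198 ± 26.4 (SD, n = 2), which was 2.89-fold lower on polymer X. The log2 fold change was -1.53 (SE 0.09, adjusted p = 2.8e-07 from limma), and that of the other listed transcript was -1.57.

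HSPH1 encodes HSP110, which is a nucleotide exchange factor of HSP70 and helps it to dissolve aggregates. Its FPKM was 38.8 and 39.2 on TCP and 12.8 and 10.8 on polymer X (NM_006644, chromosome 13, 31709111 to 31736158, minus strand). The log2 fold change was -1.64 (SE 0.08, adjusted p = 6.9e-08 from limma), and the 5 listed transcripts gave between -1.67 and -1.55. The ratio of HSPH1 to HSPA8 was 0.0667 and 0.0694 on TCP and 0.0592 and 0.0605 on polymer X, a log2 difference of -0.19, which was the smallest among 5 such ratios.

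DNAJB1 encodes HSP40, the J-domain protein that delivers clients to HSP70 and starts its cycle. Its FPKM was 48.05 and 47.1 on TCP and 33.3 and 35.4 on polymer X (NM_006145, chromosome 19, 14625576 to 14629371, minus strand). The log2 fold change was -0.46 (SE 0.06, adjusted p = 4.8e-05 from limma), and -0.16 under quantile normalization (adjusted p = 0.037 from limma, with a range of 2.1e-08 to 0.037 over all alternatives). The ratio of DNAJB1 to HSPA8 was 0.0827 and 0.0834 on TCP and 0.154 and 0.197 on polymer X. Both polymer X libraries lay above both TCP libraries in this ratio.

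**Figure D2:**
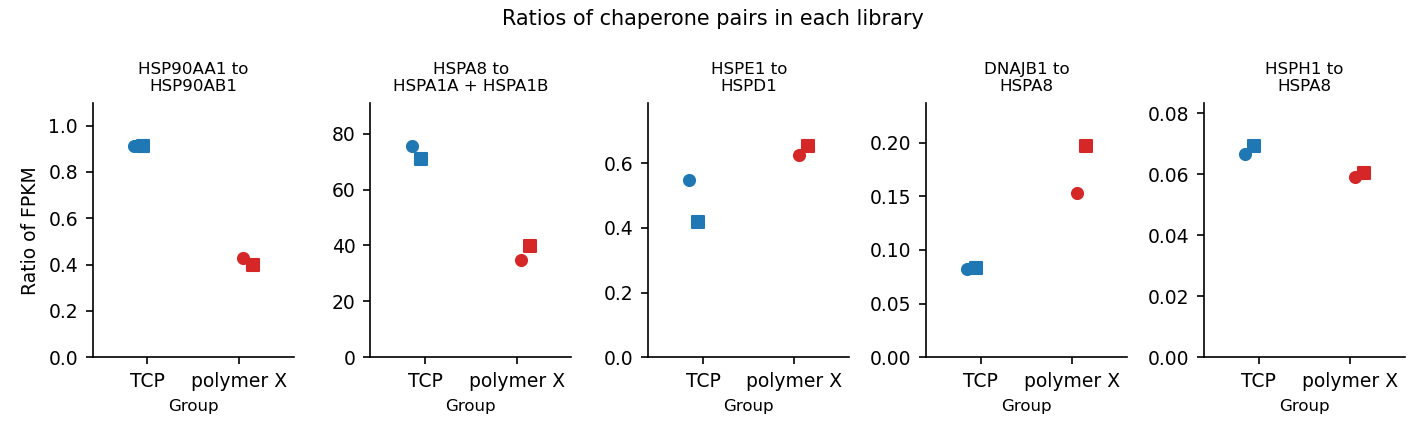
Ratio of FPKM of 2 genes (or of HSPA8 to the sum of HSPA1A and HSPA1B) in each library, on linear axes from 0, with circles for replicate 1 and squares for replicate 2. The ratio of HSP90AA1 to HSP90AB1 is 0.913 on TCP and at most 0.429 on polymer X, and that of DNAJB1 to HSPA8 is at most 0.0834 on TCP and at least 0.154 on polymer X.

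HSPA1A and HSPA1B encode the stress-inducible HSP70, from a pair of neighbouring genes in the major histocompatibility region of chromosome 6. They were listed at far lower levels than HSPA8. HSPA1A (NM_005345, 3076938 to 3079366 on the haplotype sequence chr6_qbl_hap6, plus strand) had an FPKM of 3.05 and 2.94 on TCP and 2.68 and 1.73 on polymer X. HSPA1B (NM_005346, 3089163 to 3091686 on the same sequence, plus strand) had an FPKM of 4.63 and 5.01 on TCP and 3.57 and 2.76 on polymer X. For both genes the polymer X libraries lay under the TCP libraries, and polymer X replicate 2 was the lowest. The log2 fold changes were -0.33 (SE 0.13, adjusted p = 0.034) and -0.49 (SE 0.10, adjusted p = 0.0013, both from limma). HSPA1A rested on polymer X replicate 2, without which its value was -0.12 (adjusted p = 0.23 from limma, with a range of 0.0013 to 0.23 over all alternatives). It was -0.31 without TCP replicate 1 and -0.35 without TCP replicate 2, which also ended its call at an adjusted p of 0.05 (adjusted p = 0.083 and 0.054 from limma). Without polymer X replicate 1 it was -0.55, and the summed FPKM of both genes gave -0.48 (adjusted p = 0.0036 from limma).

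The ratio of HSPA8 to the sum of both was 75.7 and 71.1 on TCP and 34.7 and 39.9 on polymer X. The levels of HSPA1A and HSPA1B are uncertain, however, and with them this ratio. The file listed each of them once, on that alternative haplotype, as 5 copies in the genome, and the length of HSPA1B was not a whole number (2517.2 bases). Of the 50-base stretches of the HSPA1A transcript, 72.6% occurred unchanged in another gene, all of them in HSPA1B, and for HSPA1B the share was 73.5%. How the authors' alignment treated tags that match several copies is not given in the sources used here. The part of this sharing in the low values was not tested. The tags behind them numbered 171 to 320 for HSPA1A and 283 to 566 for HSPA1B in each library, against 17875 to 62097 for HSPA8.

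**Figure D3:**
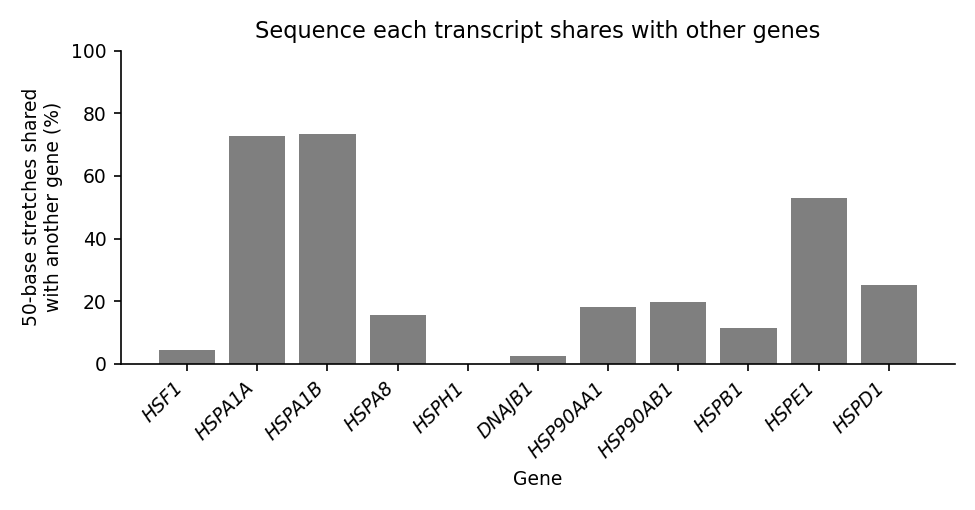
Share of the 50-base stretches of each transcript that occur unchanged, on either strand, in a GENCODE transcript of another gene. HSPA1A, HSPA1B and HSPE1 share at least 52.9% of their stretches, and the other genes share 25% or less, with 0% for HSPH1.

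The other genes shared less of their sequence. The share was 18.2% for HSP90AA1 (5 other genes, 4 of them pseudogenes), 19.6% for HSP90AB1, 15.4% for HSPA8, 11.4% for HSPB1, 4.30% for HSF1 and 2.57% for DNAJB1. HSPH1, which was 3.29-fold lower on polymer X, shared 0 of its 5142 stretches with another gene of the GENCODE annotation. The read length is not given in the sources used here, and 50 bases were taken as an example. Tags that fit a gene and its pseudogene are uncertain in the deposited values.

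HSPB1 encodes HSP27, a small heat shock protein that holds unfolding proteins without using ATP and binds to actin filaments. Its FPKM was 366 and 357 on TCP and 236 and 193 on polymer X (NM_001540, chromosome 7, 75931875 to 75933618, plus strand). The polymer X mean was 59.4% of the TCP mean. The log2 fold change was -0.76 (SE 0.09, adjusted p = 4.0e-05 from limma) and -0.47 under quantile normalization. Its FPKM was higher than that of every other small heat shock protein listed. Of 10 others listed, 3 passed the filter on low values, and HSPB2, HSPB3, CRYAA and ODF1 were listed at 0 in every library. Also under the filter, HSPB6 and HSPB9 lay at an FPKM of 0.197 or below. HSPB7, not tested either, was listed at 0 on TCP and at 0.705 and 0.968 on polymer X. All 3 that passed had an adjusted p under 0.05 from limma and were lower, as were 43.6% of all tested genes. None of the 3 reached the fold minimum. The log2 fold change was -0.88 for CRYAB (alpha B-crystallin), -0.64 for HSPB8 and -0.43 for HSPB11. The highest of the 3 was HSPB11, at 39.5 to 60.7 FPKM, a protein of the cilium transport machinery in spite of its name.

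HSPE1 (NM_002157, chromosome 2, 198364721 to 198368187, plus strand) had an FPKM of 209 and 158 on TCP and 75.5 and 67.8 on polymer X. The TCP replicates differed more for this gene than for any other of the 10, with 183 ± 35.8 (SD, n = 2) against 71.7 ± 5.43 (SD, n = 2) on polymer X. The groups did not overlap, and the log2 fold change was -1.33 (SE 0.11, adjusted p = 4.0e-06 from limma). Under quantile normalization it was -0.99, short of the fold minimum. HSPE1 starts next to HSPD1, which runs the other way and encodes the chaperonin barrel itself. HSPD1 had an FPKM of 380 and 378 on TCP and 121 and 104 on polymer X, with a log2 change of -1.75 (SE 0.08, adjusted p = 4.75e-08 from limma). The ratio of HSPE1 to HSPD1 was 0.549 and 0.418 on TCP and 0.625 and 0.654 on polymer X. Its log2 difference of 0.42 was 0.22 without TCP replicate 2 and 0.61 without TCP replicate 1. In HSPE1, 52.9% of the 50-base stretches occurred in another gene. One of the listed HSPD1 transcripts, though not the one used, overlaps HSPE1 by 278 bases, and the read-through transcript HSPE1-MOB4 spans it whole.

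**Figure D4:**
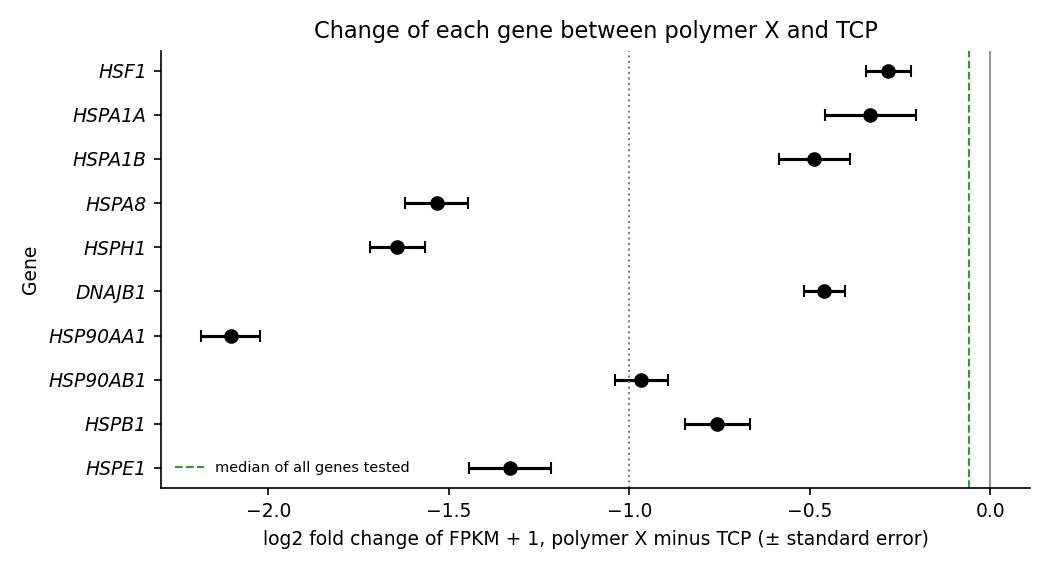
Log2 fold change of each gene, polymer X minus TCP, fitted on log2(FPKM + 1) from 2 libraries per group, with bars for the standard error, a dotted line at -1 and a dashed green line at the median of all tested genes. All 10 points lie left of 0, and HSPA8, HSPH1, HSP90AA1 and HSPE1 lie left of -1.

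The polymer X replicates were not alike for these genes. FPKM was lower in replicate 2 than in replicate 1 for 8 of the 10 genes, all but HSF1 and DNAJB1, with a median ratio of 0.851. Among 10800 genes that reached an FPKM of 1 in every library, the median ratio was 0.970, and 65.0% were lower in replicate 2. On TCP, 5 of the 10 genes were lower in replicate 2 and the median ratio was 0.995. The 4 genes called lower kept that call with either polymer X library left out, and HSP90AB1 joined them without replicate 1.

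The partners of these chaperones were described from 8 lists, 126 genes in all, of which 125 were in the file and 110 were tested. The lists were written from general knowledge but with earlier results of these data known. Their counts are thus a description and not a test of any list. Of the 110, 27 were called lower and 3 higher by limma with the fold minimum. This was 24.5% lower, against 9.45% of all tested genes lower and 10.7% higher, and the median was -0.52. The fold change minimum aside, 74 were lower, 19 higher and 17 did not pass, against 43.6% lower and 37.4% higher of all tested genes. Genes named below that were not called, and called co-chaperones past the first 3, were singled out after their values were seen.

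HSP90 co-chaperones, which load, pace and release its clients, included 9 lower and 0 higher of 23 tested (median -0.67), and 5 lower under quantile normalization. The 9 were 39.1% of those tested, against 9.45% of all tested genes lower. STIP1, the HOP protein that bridges HSP70 and HSP90, had an FPKM of 165 and 172 on TCP and 65.2 and 58.9 on polymer X, with a log2 change of -1.43. CHORDC1 fell by 1.32 and FKBP4, the immunophilin of steroid receptors, fell by 1.27 on the log2 scale. The other 6 called lower were FKBP5, AHSA1, PTGES3, NUDC, CACYBP and TTC4, between -1.26 and -1.09. FKBP8, FNIP1, FNIP2 and TSC1 had positive changes at an adjusted p under 0.05 from limma, between 0.33 and 0.82, and none reached the fold minimum.

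The TRiC chaperonin, which folds actin and tubulin, had the lowest median of the 8 lists. With the prefoldins, 9 of 14 tested genes were lower and 0 higher (64.3%, median -1.09), and under quantile normalization 5 were lower (median -0.84). All 8 TRiC subunits were lower at an adjusted p under 0.05 from limma, with log2 fold changes between -2.04 and -0.86, and 7 of them passed the fold minimum. Of all tested genes, 43.6% were lower at that adjusted p, and 9.45% with the fold minimum as well. CCT5 had an FPKM of 152 and 146 on TCP and 37.5 and 33.5 on polymer X. CCT6A and TCP1, which is a gene of the complex and not the culture plate, changed by -1.87 and -1.69. PFDN5 was the one tested gene of the list with a positive change, 0.30.

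Among the other HSP70 proteins and exchange factors, 3 were lower and 1 higher of 15 tested (median -0.21). This was 20% lower, against 9.45% of all tested genes lower and 10.7% higher. HSPA4, a relative of HSPH1, had an FPKM of 54.1 and 53.2 on TCP and 21.3 and 18.8 on polymer X, with a log2 change of -1.38. BAG2 and HSPA14 changed by -1.33 and -1.17. HSPA2 and HSPA6 went the other way. HSPA2 had an FPKM of 1.67 and 2.19 on TCP and 4.36 and 4.88 on polymer X. Its log2 fold change of 0.95 (SE 0.10, adjusted p = 1.6e-05 from limma) lay just short of the fold minimum. HSPA6, a strictly stress-inducible HSP70, moved from an FPKM of 0.287 and 0.199 on TCP to 2.56 and 1.18 on polymer X. Its log2 fold change of 1.16 (SE 0.19, adjusted p = 0.00031 from limma) was called higher, and its 2 polymer X values were far apart. It was not called without polymer X replicate 1 or under quantile normalization.

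Of the J-domain proteins, 2 of 20 tested were lower, DNAJC9 (-1.81) and DNAJC2 (-1.07), and 1 was higher, DNAJB9 (1.33), which is a chaperone of the endoplasmic reticulum in spite of its place in this list. The median was -0.36, and the 10% called lower lay near the 9.45% of all tested genes. DNAJC9 is a histone chaperone as well. Of 15 mitochondrial chaperones and proteases, 2 were lower, HSPD1 and DNLZ (-1.15), and 0 were higher (13.3% lower against the same 9.45%, median -0.65).

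Among 12 tested genes of the HSF family and the direct regulators of HSF1, 1 was higher and 1 lower (median -0.25). This was 8.33% each way, no more than the 10.7% higher and 9.45% lower of all tested genes. HSF4, a family member best known from the lens, had an FPKM of 2.04 and 2.38 on TCP and 12.04 and 14.6 on polymer X, with a log2 change of 2.15 (SE 0.10, adjusted p = 6.0e-08 from limma). HSF4 overlaps FBXL8 on the same strand by 790 bases, and FBXL8 moved from 1.94 and 1.84 FPKM to 9.34 and 10.2, so their tags cannot be told apart there. PLK1, a mitotic kinase that also acts on HSF1, changed by -2.90, and 63 of its bases overlap ERN2 on the opposite strand. HSF2 had an FPKM of 7.17 and 7.65 on TCP and 6.45 and 6.67 on polymer X (log2 fold change -0.15, adjusted p = 0.060 from limma).

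Genes other than the 10 that are known to be induced by heat shock were listed separately, and many of them also stand in the lists above. Of the 25 tested, 9 were lower and 1, HSPA6, was higher (36.0% lower against 9.45% of all tested genes, median -0.71). The largest falls were those of GADD45B (-1.85), HSPD1 (-1.75) and STIP1 (-1.43). BAG3, the exchange factor widely used as a readout of HSF1, had an FPKM of 23.7 and 24.0 on TCP and 14.2 and 14.2 on polymer X, with a log2 change of -0.71. SERPINH1, UBB and ZFAND2A had log2 fold changes between 0.030 and 0.15 with an adjusted p over 0.05 from limma.

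**Figure D5:**
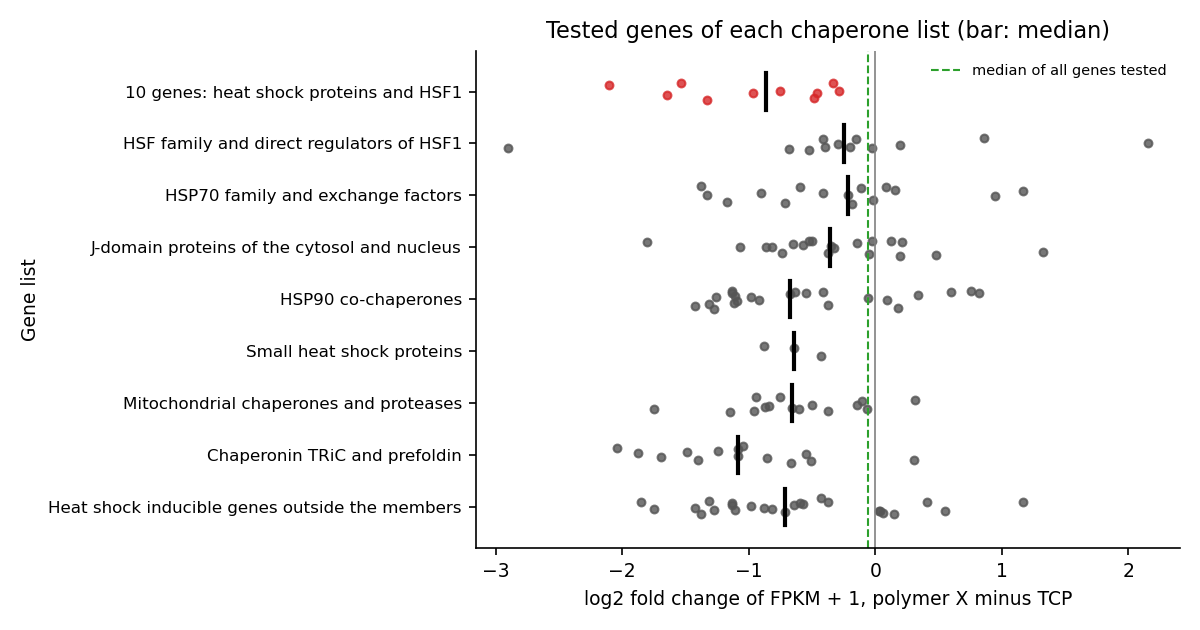
Log2 fold change of every tested gene in each chaperone list, polymer X minus TCP, on log2(FPKM + 1), with a black bar at the median of the list and a dashed green line at the median of all tested genes. The medians run from -1.09 for the chaperonin TRiC and prefoldin to -0.21 for the HSP70 family, and the median of the 10 genes, in red, is -0.86.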

How the data were processed

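Libraries were made from mRNA of SKOV3 cells, 2 on TCP and 2 on polymer X. Per the file headers, the authors counted tags over exons of RefSeq transcripts on hg19 with HOMER, on both strands, and deposited FPKM. The submitters' processing notes also name STAR 2.4.0 and DESeq. The depths above were found from steps of low FPKM, at which tag numbers were whole within 0.1 tag. Samples were grouped by title.

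The transcript of highest mean FPKM stood for its symbol. Genes that reached FPKM 1 in 2 or more libraries were fitted as log2(FPKM + 1) in limma 3.58.1 (R 4.3.3) with a variance trend and Benjamini-Hochberg adjustment, after a test on simulated data. A call needed an adjusted p under 0.05 and a log2 fold change of 1 or more in size. The 10 genes and all lists were chosen with earlier results of these data known, so no list was tested as a set. Named genes were the 10, HSPD1, and of each list the called genes or, with over 6 called, the 3 largest changes in each direction. Promoters came from RefSeq. Alternatives were another pseudocount, filter, normalization, transcript, fold minimum, variance model and replicate block, and each library left out. Transcript stretches and figures were made in Python 3.11.15.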

Additional observations from a re-analysis of the deposited data

How the results depend on the processing

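Each alternative changed 1 choice. For single genes the adjusted p was compared with 0.05 without the fold minimum, which HSPE1 missed under quantile normalization (-0.994) and HSP90AB1 passed without polymer X replicate 1 (-1.027). DNAJB1 was -0.157 under quantile normalization, against -0.460. With a pseudocount of 0.1, 1837 genes were higher, against 1285. With a minimum mean FPKM of 5, 702 genes were higher and 960 lower, against 1285 and 1131. With no minimum fold, 4477 genes were higher and 5212 lower, 10 of the 10 heat shock genes among the latter. With a fold minimum of 2 on the log2 scale, 281 were higher and 150 lower, 1 of the 10 among them. Quantile normalization turned HSF1 to 0.004. HSPA1A missed an adjusted p of 0.05 in limma with no filter (-0.333), with transcripts summed (-0.333) and with scaling to a common median (-0.303). The median over all genes was 0.014 with no filter and -0.201 at a mean FPKM of 5, against -0.058. The median of the 10 genes was -1.149 at a mean FPKM of 5, which removes HSPA1A and HSPA1B, and -0.722 under quantile normalization. The causes of the other shifts were not tested.

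List medians moved as follows. With a pseudocount of 0.1 they were -0.271 for HSP70 proteins, -0.386 for J-domain proteins, -0.972 for HSP90 co-chaperones, -0.722 for small heat shock proteins and -0.758 for mitochondrial chaperones. With no filter they were -0.198 for the HSF list, -0.338 for J-domain and -0.286 for small heat shock proteins. At a mean FPKM of 5 they were -0.297 for the HSF list, -0.410 for HSP70, -0.436 for J-domain, -0.984 for HSP90 co-chaperones, -0.534 for small heat shock proteins, -0.750 for mitochondrial and -0.898 for inducible genes. Under quantile normalization they were -0.145, -0.391 and -0.266 for the first 3, -0.761 for HSP90 co-chaperones and -0.836 for TRiC. Scaling to a common median gave -0.207, -0.182, -0.321 and -0.631 for the first 4. Summed transcripts gave -0.198 for the HSF list, -0.393 for J-domain, -0.715 for HSP90 co-chaperones, -0.539 for small heat shock and -0.750 for mitochondrial genes, and -0.146 for the log2 ratio of HSPH1 to HSPA8. Of HSP70 genes, 2 were higher with a pseudocount of 0.1, and 0 at a mean FPKM of 5 or under quantile normalization. The same settings of mean and quantile left 0 inducible genes higher, and the former 0 J-domain genes. Quantile normalization left 5 HSP90 co-chaperones and 5 TRiC genes lower. Of the small heat shock proteins, 1 was lower with a pseudocount of 0.1, under quantile normalization and with transcripts summed, and with the last 1 was higher.

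Leaving out 1 library leaves a single library in its group, which limma then takes to vary like the other group. HSPA1A ranged from -0.547 to -0.119. Genes called higher numbered 1289 to 1325 and lower 1053 to 1234, with 4 to 5 of the 10 among the latter. List medians ranged from -0.280 to -0.245 (HSF), -0.292 to -0.137 (HSP70), -0.393 to -0.336 (J-domain), -0.728 to -0.616 (HSP90 co-chaperones), -0.794 to -0.491 (small), -0.695 to -0.614 (mitochondrial), -1.179 to -1.040 (TRiC) and -0.794 to -0.705 (inducible). HSP70 genes called higher numbered 1 to 2, and inducible genes called higher 0 to 1. The log2 ratios ranged from -1.194 to -1.089 for HSP90AA1 to HSP90AB1, from 0.22 to 0.613 for HSPE1 to HSPD1 and from 0.886 to 1.247 for DNAJB1 to HSPA8.

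Libraries share only a replicate number, and deviations of same-numbered libraries from their group means correlated at 0.093 over 11964 genes. A fit with the replicate number as a block called 4 of the 10 genes lower and 0 higher, with a median of -0.862. Depth limits HSPA1A and HSPA1B most, at 171 to 566 tags in a library.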
